A study of Mus musculus with 8 samples.

Results

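Platelet-derived growth factors (PDGFs) and hepatocyte growth factor (HGF) are secreted proteins by which stromal cells signal to each other and to epithelia, and the mRNAs of 9 genes of these pathways were followed in mouse adipose-derived stem cells (ADSCs). The genes were the PDGF ligands Pdgfa, Pdgfb, Pdgfc and Pdgfd, the PDGF receptors Pdgfra and Pdgfrb, Hgf, its receptor Met, and Mst1r, which encodes RON, the receptor closest to MET. They were chosen by gene symbol as pairs of growth factor and receptor, by a rule that names no measured value. All 9 were among the 24346 genes listed for every library, and all 9 were above 0 in at least 1 library, which made them part of the 18862 genes tested.

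PDGF ligands act as dimers on 2 receptor tyrosine kinases that are typical of fibroblasts, pericytes and other mesenchymal cells, and PDGFRα is a usual marker of adipocyte progenitors. The A and C chains act through PDGFRα, the D chain acts mainly through PDGFRβ, and the B chain binds both receptors. HGF is a classic product of stromal cells, is secreted as an inactive single chain that proteases must cut, and then activates MET, which is typically made by epithelial cells. RON is activated in a like way by macrophage-stimulating protein (MSP), the product of Mst1.

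In the GENCODE M21 annotation of GRCm38, the same assembly as mm10, Pdgfa lies at chr5:138976014-138997370 (minus strand), Pdgfra at chr5:75152292-75198215 and Hgf at chr5:16553495-16620152 (both plus). Pdgfb lies at chr15:79995874-80014977 (minus), Pdgfc at chr3:81036416-81214040, Met at chr6:17463800-17573980, Pdgfd at chr9:6168584-6378850, Mst1r at chr9:107906873-107920383 and Pdgfrb at chr18:61045150-61085061 (all plus). The values are levels of whole genes, from the fragments over the exons of their transcripts.

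The cells were primary cultures from adipose tissue of wild-type (WT) BALB/c mice, labelled as mesenchymal stem cells, and by the methods of the study the mice were males of 12 weeks and the fat was gonadal. The 2D group held conventional cultures of mice 2, 3, 4 and 5, and the 3D group held organotypic cultures of mice 1, 4, 5 and 7, grown in Matrigel, a basement membrane gel. Each library was 1 culture of 1 mouse, so that p-values measure the spread between cultures of 4 mice per group, and mice 4 and 5 gave a library to both groups. The labels give neither the medium nor the passage of the sequenced cultures. In the study, cells in Matrigel stayed single with serum and conventional 2D medium and grew as organoids in its 3D culture media. The gel, the medium, and any difference in passage or the cells that grew, cannot be told apart in this design.

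Expression was measured as FPKM (fragments per kilobase of transcript, scaled to the size of the library), a level per transcript length, here quantile normalized. An estimated 16.46 M to 17.28 M fragments lay behind each 2D library and 14.5 M to 15.56 M behind each 3D library. Markers of cell types differed between the groups. The summed level of 8 stromal markers, among them Col1a1 and Dcn, was 1991 to 4437 normalized FPKM in 2D libraries and 4.74 to 8.59 in 3D libraries, and 7 of the 8 were lower in 3D (Lum was not called). Dcn was at 0 and Col3a1 at most at 0.0184 in every 3D library, which goes against the mesenchymal label of these cultures. Twist1, of the same list, was lower in 3D but stayed at 4.59 to 7.99 there and made up most of the 3D sum. The sum of 11 epithelial markers, among them Epcam and Cdh1, was 31.2 to 694 in 2D and 2475 to 2770 in 3D libraries, and 10 of the 11 were higher in 3D (Krt18 was not called). Endothelial markers summed to at most 6.79 in any library, and Pecam1 and Cdh5 were at or under 0.164. The macrophage list gave no single direction. Cd14 and Cd68 were higher in 3D, and Cd14, at 81.7 to 164, made up most of a sum of 124 to 170 there, beside a sum of 5.41 to 24.8 in 2D. Lyz2 was at 18.7, 0.227, 8.04 and 0.552 in the 2D libraries and at 0 in every 3D library without passing the test, and Ptprc and Adgre1 were at most 0.0779 and 0.476 in any library. Epididymal markers summed to at most 4.55 and adipocyte markers to at most 39.3, nearly all of it Lpl, with Adipoq and Lep at 0. Pericyte markers, of a cell type that carries PDGFRβ, went in both directions, with Rgs5, Mcam and Des lower in 3D, Notch3 higher, and Kcnj8 and Abcc9 near 0 throughout. Their sum was 20.6 to 75.7 in 2D and 13.4 to 22.6 in 3D libraries, of which Notch3 made up 9.77 to 16.3 in 3D. Cspg4 did not pass, at 0.393 to 20.6 in 2D and at most 0.0111 in 3D libraries. In bulk RNA, fewer cells of a type and less RNA per cell cannot be told apart, and the part of cell type in the results on the 9 genes was not tested.

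Both PDGF receptors, Pdgfa and Hgf were lower in 3D than in 2D libraries, and Pdgfb and Met were higher. These 6 genes had an adjusted p below 0.05 in limma's moderated test on log2(normalized FPKM + 1), a scale that understates the change of low genes. Of the 9 genes 4 were lower, whereas 20.3% of all genes tested were lower at this threshold, and 2 were higher, whereas 21.2% of all genes were. Pdgfc, Pdgfd and Mst1r did not pass. The 2D libraries of Pdgfa, Pdgfra, Pdgfrb and Hgf all exceeded the 3D ones, as in 20.9% of all genes tested, and the 3D libraries of Pdgfb and Met all exceeded the 2D ones, as in 21.6%. The median log2 fold change of the 9 genes was -1.70, beside 0.0012 over all genes tested. Since the groups did not overlap, each of the 6 genes necessarily differed in the same direction within mouse 4 and within mouse 5, which is no further evidence. Taking the mouse as a block left the comparison to these 2 animals, kept 1 residual degree of freedom and called 0 of the 18862 genes. Without adjustment the blocked p was below 0.05 for 4 of the 9 genes (Pdgfb, Pdgfra, Pdgfrb and Met), beside 27.7% of all genes tested.

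**Figure D1:**
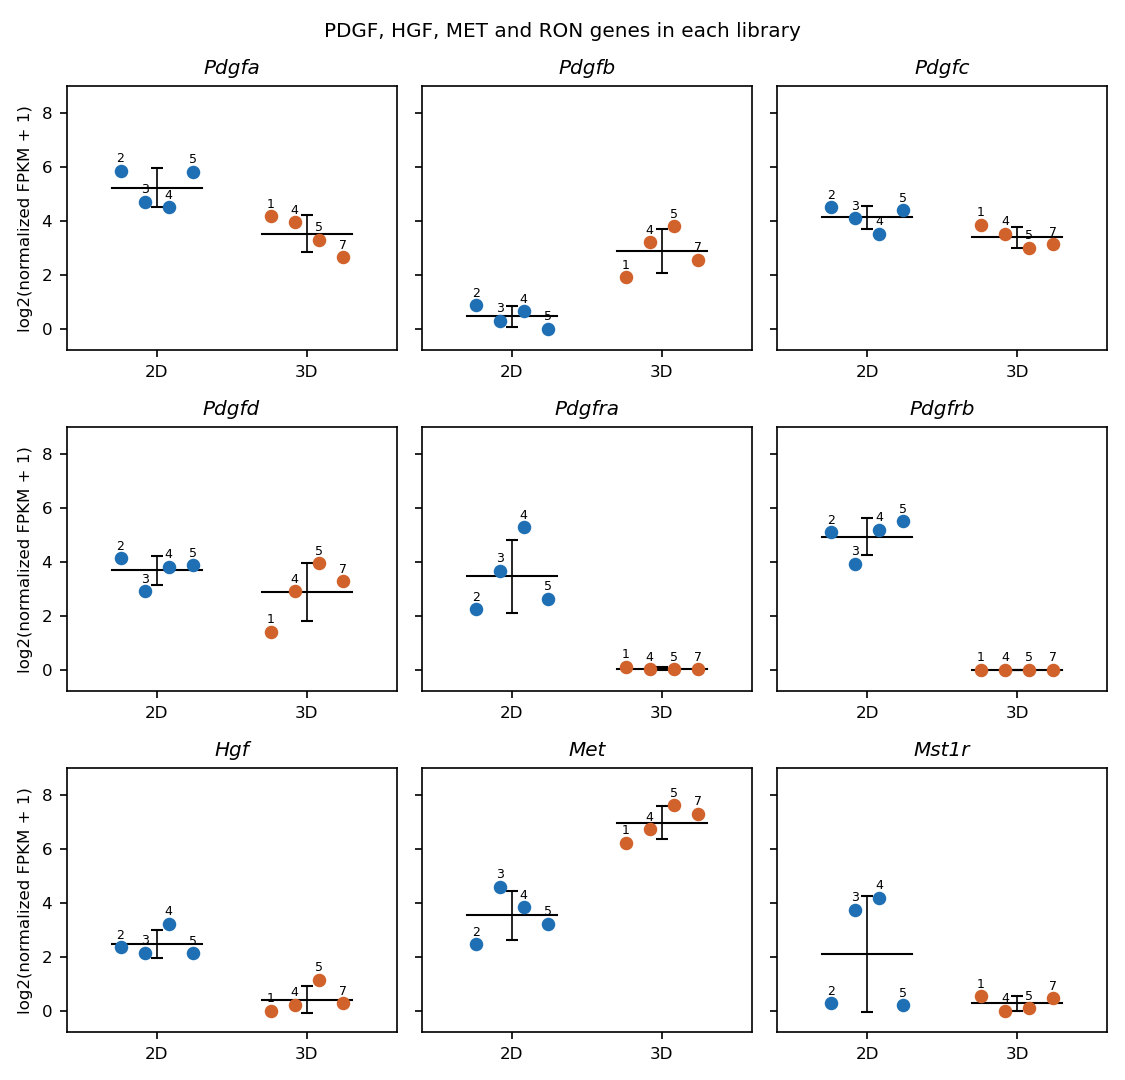
Each panel shows log2(normalized FPKM + 1) of 1 gene in the 4 libraries of 2D cultures (blue) and the 4 of 3D cultures (orange), numbered by mouse, with the group mean as a line and 1 SD as a bar. Both PDGF receptors and Hgf sit near 0 in 3D, Met and Pdgfb sit higher in 3D, and the Mst1r panel splits the 2D libraries into mice 3 and 4 above and mice 2 and 5 near 0.

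Among the ligands, Pdgfa was the most abundant in 2D culture. In 2D, mice 2, 3, 4 and 5 gave normalized FPKM values of 57.0, 25.2, 21.7 and 55.8, and in 3D, mice 1, 4, 5 and 7 gave 17.1, 14.6, 8.88 and 5.31. All further values are given in this order of mice. The groups did not overlap, although the lowest 2D library, of mouse 4, was close to the highest 3D library, of mouse 1. The mean was 39.9 ± 19.1 in 2D and 11.5 ± 5.36 in 3D (SD, n = 4), a log2 fold change of -1.70 with a standard error (SE) of 0.44 and limma's adjusted p = 0.0172. With mice 4 and 5 only, or without the 2D libraries of mice 2 and 5, the adjusted p of Pdgfa was 0.15 and 0.119, and it was between 0.00955 and 0.15 over all alternatives apart from the block.

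Pdgfb moved the other way. Its values were 0.840, 0.228, 0.587 and 0 in 2D and 2.78, 8.34, 12.9 and 4.93 in 3D libraries, so that the lowest 3D library exceeded each 2D library. The group means were 0.414 ± 0.373 and 7.24 ± 4.41 (SD, n = 4), a 17.5-fold difference, and the log2 fold change was 2.42 (SE 0.41, limma's adjusted p = 0.00254). The B chain is best known as a product of endothelial cells and platelets. Its mRNA was near 0 in 2D cultures and in the range of the other PDGF ligands in 3D cultures. Endothelial markers summed to at most 0.202 normalized FPKM in 3D libraries, and the cell source of Pdgfb mRNA was not tested.

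Pdgfc and Pdgfd, whose chains are secreted with a CUB domain that must be removed, did not pass the test. Pdgfc was at 21.7, 16.2, 10.5 and 20.0 in 2D and at 13.6, 10.5, 7.08 and 7.81 in 3D libraries. The groups overlapped only in that the 2D library of mouse 4 lay below the 3D library of mouse 1, and the values of mouse 4 were level between its cultures (10.5 in each), whereas those of mouse 5 fell by 1.38 on the log2 scale. Its log2 fold change of -0.75 had a 95% interval of -1.37 to -0.13 and limma's adjusted p = 0.057. Pdgfc passed without the 2D library of mouse 4 (adjusted p = 0.0164) and without the 3D library of mouse 1 (adjusted p = 0.0304), and in 3 other alternatives.

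Pdgfd was at 16.6, 6.52, 13.2 and 13.7 in 2D and at 1.67, 6.57, 14.4 and 8.77 in 3D libraries. Its 3D values spread over most of the 2D range, with the library of mouse 1 lowest. The log2 fold change of -0.80 had a 95% interval of -2.04 to 0.45 (limma's adjusted p = 0.274), and no alternative brought it past the threshold.

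Summed over the 4 ligands, 2D libraries held 45.95 to 96.14 and 3D libraries 26.82 to 43.24 normalized FPKM. The ligand mixture differed as well as its total. Pdgfb made up 0 to 1.28% of the sum in 2D and 7.9 to 29.8% in 3D libraries, while Pdgfa went from 47.2 to 62.3% of the sum to 19.8 to 48.7%. These sums and shares are descriptions without a test.

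Both receptors were near or at 0 in every 3D library. Pdgfrb was at 33.3, 14.3, 35.6 and 44.4 normalized FPKM in 2D libraries and was listed at 0 in all 4 libraries of 3D cultures. At the estimated depth, 3 fragments on its transcript of 5423 nt would have given at most 0.03815 FPKM in a 3D library, a limit that covers counting error only. Mouse 3 was lowest in 2D, and the groups lay far apart. The fitted log2 fold change of -4.93 (SE 0.32, limma's adjusted p = 2.2e-05) is set by the pseudocount of 1 and is no bound. Within mice 4 and 5 the same difference was -5.19 and -5.50.

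Pdgfra varied widely among 2D cultures, at 3.72, 11.7, 38.3 and 5.24, and was at 0.0872, 0.0147, 0.0150 and 0.0179 in 3D libraries. The 2D libraries of mice 4 and 3 were highest, yet the lowest, of mouse 2, was still far above every 3D library. The 3D values rest on an estimated 13.2 fragments in mouse 1 and 1.02 to 2.05 in the other mice, beside 347 to 4950 fragments in 2D libraries, so that the level in 3D is known only as close to 0. The log2 fold change was -3.41 (SE 0.61, limma's adjusted p = 0.00323). It was -2.42 without the 2D libraries of mice 3 and 4 and passed there too, and with mice 4 and 5 only it did not (adjusted p = 0.078).

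The receptor mixture in 2D cultures differed between mice. Pdgfra made up 10.05% and 10.56% of the receptor sum in mice 2 and 5, and 45.04% and 51.8% in mice 3 and 4. The receptor sum was 26.07 to 73.86 normalized FPKM in 2D and 0.0147 to 0.0872 in 3D libraries, so that 3D cultures held PDGF ligand mRNA with next to no PDGF receptor mRNA.

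Hgf was low in both groups and lower in 3D. Its values were 4.13, 3.45, 8.43 and 3.43 in 2D and 0, 0.169, 1.22 and 0.219 in 3D libraries. Mouse 4 was highest in 2D and mouse 5 in 3D, and the groups did not overlap. The 3D values rest on an estimated 0, 10.4, 71.7 and 11.4 fragments, beside 165 to 487 in 2D libraries. The means of 4.86 ± 2.40 and 0.402 ± 0.553 (SD, n = 4) gave a 12.1-fold difference, a log2 fold change of -2.06 (SE 0.33) and limma's adjusted p = 0.00203. With mice 4 and 5 only, Hgf did not pass (adjusted p = 0.095), and within these mice the differences were -3.01 and -0.998 on the log2 scale.

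Met, the HGF receptor, rose as its ligand fell. It was at 4.54, 23.3, 13.5 and 8.41 in 2D and at 74.3, 106, 196 and 158 in 3D libraries, with a gap between the highest 2D library (mouse 3) and the lowest 3D library (mouse 1). The means were 12.4 ± 8.12 and 133 ± 54.0 (SD, n = 4), a 10.7-fold difference. The log2 fold change was 3.44 (SE 0.49, limma's adjusted p = 0.00104), and the adjusted p was at most 0.0186 under the alternatives apart from the block. Within mice 4 and 5 the differences were 2.88 and 4.39. In 2D cultures Met stood at 1.10 to 6.76 times the level of Hgf, and in the 3D cultures with Hgf above 0 at 160.5 to 722.7 times. The 3D ratios rest on an estimated 10.4 to 71.7 fragments of Hgf per library and are rough.

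The proximal promoters of Met and Pdgfra are shown because these receptors, one typical of epithelia and one of mesenchyme, moved in opposite directions. The windows are RefSeq reference sequence of GRCm38.p6 from 250 bases before to 50 bases after an annotated start, at chr6:17463707-17464006 for Met and chr5:75152001-75152300 for Pdgfra, both on the plus strand and written 5′ to 3′. Capitals mark matches on either strand to 5 motifs, the GC box (GGGCGG), the AP-1 site (TGANTCA), an E-box (CAGGTG), the TATA box (TATAAA) and the CCAAT box (CCAAT), none of which overlapped another in these windows.
Met: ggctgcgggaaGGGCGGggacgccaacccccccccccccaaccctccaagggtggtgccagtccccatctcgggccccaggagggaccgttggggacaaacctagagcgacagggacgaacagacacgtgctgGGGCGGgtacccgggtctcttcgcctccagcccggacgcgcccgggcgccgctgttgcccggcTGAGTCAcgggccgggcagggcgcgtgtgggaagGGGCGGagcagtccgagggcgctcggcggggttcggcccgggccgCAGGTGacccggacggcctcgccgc
Pdgfra: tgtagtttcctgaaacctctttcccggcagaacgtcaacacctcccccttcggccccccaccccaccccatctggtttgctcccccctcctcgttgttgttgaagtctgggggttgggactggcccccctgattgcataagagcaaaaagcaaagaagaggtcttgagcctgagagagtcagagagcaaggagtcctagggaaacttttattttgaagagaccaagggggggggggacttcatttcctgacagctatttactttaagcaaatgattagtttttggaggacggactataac
The Met window held 3 GC boxes, 1 AP-1 site and 1 E-box, while the Pdgfra window held no match. Among 32851 promoter windows of the same length, 35.7% held a GC box, 7.81% the AP-1 letters, 20.2% this E-box, 13.6% the TATA letters and 37.4% the CCAAT letters. Met had a GC content of 75.7% and 34 CpG dinucleotides, more than 92.3% of windows, and Pdgfra had 51% and 5, more than 38%, beside medians of 52.7% and 7. A match is a description of letters and not a measured binding site. Windows were found for 7 of the 9 genes, which did not include Pdgfb and Pdgfrb. The promoters of Pdgfa had 1 and 2 GC boxes in 2 windows, 1 of the windows of Mst1r held 2, that of Pdgfd held 1 TATA match, and 1 of the windows of Hgf held 2 CCAAT matches.

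Mst1r, the receptor of MSP, split the 2D cultures by mouse. It was at 0.224, 12.5, 17.3 and 0.160 in 2D and at 0.464, 0, 0.0725 and 0.385 in 3D libraries. Only the 2D libraries of mice 3 and 4 were above 1 normalized FPKM, and the 2D libraries of mice 2 and 5 lay within the 3D range. Its log2 fold change of -1.83 had a 95% interval of -4.07 to 0.41 (limma's adjusted p = 0.17). The value depended on which 2D libraries were kept, at 0.03 without those of mice 3 and 4 (adjusted p = 0.904) and -3.65 without those of mice 2 and 5 (adjusted p = 0.000316), both alternatives chosen after the data were seen.

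Markers of mesothelium, the lining that covers gonadal fat, moved with Mst1r among the 2D libraries. The sum of Msln, Upk3b, Upk1b, Wt1 and Lrrn4 was 1.99, 816, 2002 and 0.525 normalized FPKM in 2D and 1.57, 33.7, 5.78 and 6.23 in 3D libraries. Each of the 5 markers was higher in the 2D libraries of mice 3 and 4 than in those of mice 2 and 5, and 0 of the 5 passed the test between the groups. The epithelial marker sum split these libraries in the same way, at 31.2, 176, 694 and 31.8 in 2D. Keratins made up nearly all of it, with Krt18 at 2.89, 114, 256 and 0 and Krt8 at 0, 26.8, 261 and 0.0603. Krt19 was at 25.5, 31.6, 109 and 28.0, and Krt7 at 2.73, 3.02, 67.3 and 3.48. In the 2D libraries of mice 3 and 4, Epcam, Grhl2, Esrp1 and Elf3 were at 0. Cdh1, Cldn3 and Cldn7 were at most 0.716, 0.189 and 0.122 there. Pdgfra was also highest in mice 3 and 4, and Pdgfa was lowest there, while Pdgfrb was highest in mouse 5 and lowest in mouse 3. The part of mesothelial or epithelial cells in the levels of Mst1r and Pdgfra was not tested. Without the 2D libraries of mice 3 and 4, 5 of the 9 genes were lower and 2 higher in 3D, and without those of mice 2 and 5, 4 were lower and 2 higher. The shares of all genes called in these smaller comparisons are not given here, so the counts have no background of their own.

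**Figure D2:**
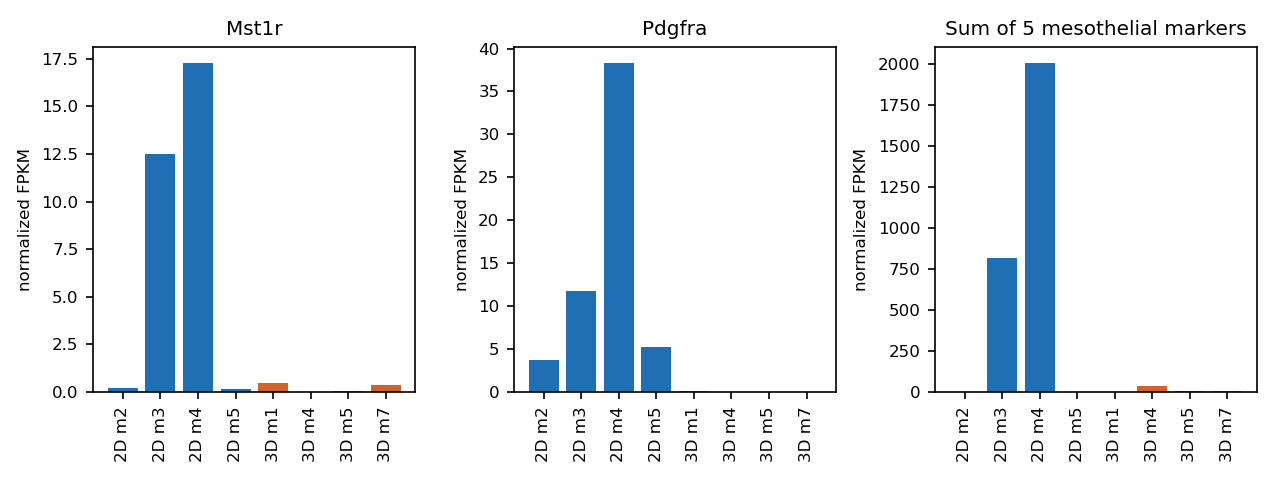
Bars give normalized FPKM of Mst1r, of Pdgfra and of the sum of 5 mesothelial markers in each library, named by culture and mouse, with 2D in blue, 3D in orange and every axis starting at 0. The 2D libraries of mice 3 and 4 hold the highest bars in all 3 panels, at 12.5 and 17.3 for Mst1r, 11.7 and 38.3 for Pdgfra, and 816 and 2002 for the marker sum.

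The order of the 9 genes by level per length differed between the groups. By median of the 4 libraries, the order in 2D was Pdgfa (40.5 normalized FPKM), Pdgfrb (34.4), Pdgfc (18.1), Pdgfd (13.4), Met (10.9), Pdgfra (8.49), Mst1r (6.36), Hgf (3.79) and Pdgfb (0.408). Neighbours in this order overlapped, with Hgf above Pdgfb as the exception. In 3D the order was Met (132), Pdgfa (11.7), Pdgfc (9.15), Pdgfd (7.67), Pdgfb (6.64), Mst1r (0.229), Hgf (0.194), Pdgfra (0.0164) and Pdgfrb (0). Here Met lay clear of Pdgfa and Pdgfb of Mst1r. The order of Pdgfra and Pdgfrb is not known, since Pdgfra rests on 1.02 to 2.05 estimated fragments in 3 of the 3D libraries, and the other neighbours overlapped. The median of Met exceeded that of 67.5% of genes tested in 2D and 97.2% in 3D, and that of Pdgfrb exceeded 88.1% in 2D and 0% in 3D.

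**Figure D3:**
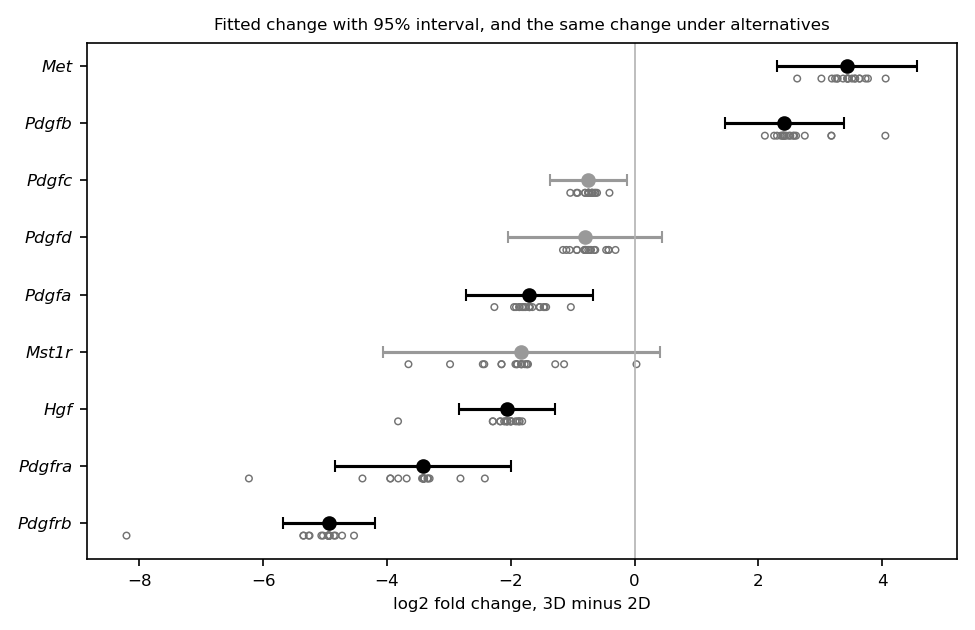
Points give the fitted log2 fold change (3D minus 2D) with its 95% interval, in black where limma's adjusted p was below 0.05 and in grey where it was not, and open circles give the value under each alternative. The intervals of Met and Pdgfb lie above 0, those of Pdgfa, Hgf, Pdgfra and Pdgfrb below 0, and the circles of Mst1r run from -3.65 to 0.03.

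HGF and MSP are secreted inactive, and several genes that cut them or block the cutting were near 0 in 2D and present in 3D cultures. The list of 12 genes held these proteases and inhibitors and the MSP gene Mst1. F12, Klkb1 and Serpina5 were at 0 in every library, and of the 9 tested 8 were higher in 3D (21.2% of all genes tested were) and 0 lower, with a median log2 fold change of 5.15. Hgfac encodes HGF activator, a protease named for this task. It was at 0.0317 to 0.145 normalized FPKM in 2D and at 81.8, 93.4, 38.8 and 6.87 in 3D libraries, with mouse 7 well below the others (log2 fold change 5.20, limma's adjusted p = 0.00104). St14 encodes matriptase, a membrane protease of epithelia, and was at 0 to 0.180 in 2D and at 55.3 to 60.4 in 3D libraries (log2 fold change 5.73, adjusted p = 4.7e-08). Hpn, which encodes the membrane protease hepsin, was at 0 to 0.119 in 2D and at 90.8, 16.6, 24.9 and 41.9 in 3D libraries (log2 fold change 5.15, adjusted p = 0.000112).

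The inhibitors of these proteases were higher still. Spint1 and Spint2 encode HAI-1 and HAI-2, membrane inhibitors that block HGF activator, matriptase and hepsin. Spint1 was at 0.121 to 0.30 in 2D and 99.9 to 111 in 3D libraries (log2 fold change 6.46, limma's adjusted p = 1.56e-08). Spint2 was at 0.435 to 3.10 and 339 to 427 (log2 fold change 7.499, adjusted p = 2.54e-06). Hgfac, St14 and Hpn together summed to 0.175 to 0.246 in 2D and 104 to 233 in 3D libraries, and Spint1 and Spint2 to 0.638 to 3.40 and 443 to 530, so that inhibitor mRNA exceeded the mRNA of these proteases in every library.

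The other genes of this list changed less. Tmprss13, a further membrane protease, was at 0 to 0.035 in 2D and 0.285 to 1.44 in 3D libraries (log2 fold change 0.68, limma's adjusted p = 0.0229), and did not pass in 6 of 18 alternatives, among them those without the 2D library of mouse 2 (adjusted p = 0.0507) or the 3D library of mouse 1 (0.0527). Mst1, the ligand of RON, was at most 0.245 in 2D and 0.208 to 0.726 in 3D libraries, with overlap (adjusted p = 0.0444, between 0.0266 and 0.336 over the alternatives apart from the block). It did not pass in 10 of 18 alternatives, among them those without the 2D library of mouse 2, 3 or 5 (0.0954, 0.0956 and 0.104) or the 3D library of mouse 1 or 4 (0.0949 and 0.0756). Plau, which encodes urokinase, was at 11.1 to 29.3 in 2D and 26.9 to 70.5 in 3D libraries, with overlap (log2 fold change 1.15, adjusted p = 0.0484), and 15 of 19 alternatives lost this call, with an adjusted p of up to 0.13. Among them were those without any 1 of the libraries other than the 3D library of mouse 1, with adjusted p from 0.0509 to 0.117. Plat, which encodes tissue plasminogen activator, was at 22.4 to 37.9 in 2D and at 6.31, 76.9, 67.4 and 13.1 in 3D libraries (adjusted p = 0.842). In 3D, mice 4 and 5 lay above and mice 1 and 7 below every 2D library, and with mice 4 and 5 only Plat was higher in 3D (log2 fold change 1.13, adjusted p = 0.0431).

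**Figure D4:**
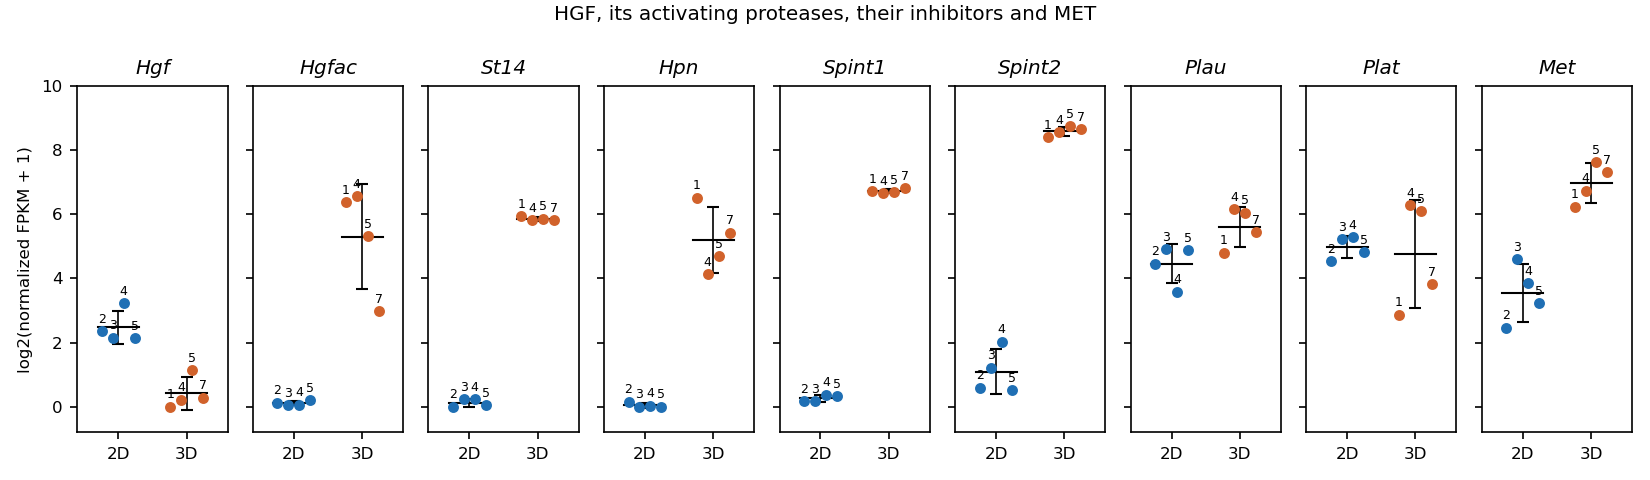
Each panel shows log2(normalized FPKM + 1) of 1 gene in the libraries of 2D (blue) and 3D (orange) cultures, numbered by mouse, with the group mean and 1 SD. From left to right stand Hgf, the proteases Hgfac, St14 and Hpn, the inhibitors Spint1 and Spint2, the plasminogen activators Plau and Plat, and Met, and the proteases and inhibitors named first lie near 0 in 2D and far above it in 3D.

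Genes that process PDGFs or assist their receptors did not move as 1 group. Of 7 such genes 2 were higher (Plau and St14, which also stand in the HGF list and whose proteases can cut the D chain), 1 was lower and 4 did not pass, with 42.9% called, beside 41.5% of all genes tested, and a median log2 fold change of 0.48. Lrp1, a large endocytic receptor that associates with PDGFRβ, was at 67.2, 60.2, 54.3 and 64.6 in 2D and at 3.91, 6.23, 0.343 and 0.346 in 3D libraries. It fell by 4.46 on the log2 scale (limma's adjusted p = 0.000593, 0.0564 with mice 4 and 5 only). Furin, which cuts the A and B chains in the secretory path, was at 20.2 to 39.8 and 33.7 to 49.8 (log2 fold change 0.48, adjusted p = 0.138), and passed without the 2D libraries of mice 2 and 5 (0.0118). Pcsk5, a convertase of the same family, had a log2 fold change of 0.96 (adjusted p = 0.164). Nrp1, a co-receptor for several growth factors, was at 26.5 to 56.5 in 2D and 28.1 to 39.8 in 3D libraries (log2 fold change -0.40, adjusted p = 0.24). Without the 2D library of mouse 4, the lowest of that group, Nrp1 was called lower (log2 fold change -0.65, adjusted p = 0.00781).

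The list of MET partners held 4 genes, of which Sema4d encodes a ligand of the partner plexin-B1. Of these 4 genes, 3 were higher in 3D, beside 21.2% of all genes tested. Itgb4, the integrin β4 chain that joins epithelial cells to the basement membrane, was at 0.124, 1.31, 1.13 and 0.0927 in 2D and at 197, 102, 104 and 71.9 in 3D libraries (log2 fold change 6.15, limma's adjusted p = 1.54e-05). Plxnb1, the semaphorin receptor plexin-B1, was at 1.38, 7.55, 7.28 and 1.03 in 2D and at 26.4 to 43.5 in 3D libraries (log2 fold change 2.90, adjusted p = 0.00322, 0.0858 with mice 4 and 5 only). Its ligand Sema4d was at 0.109 to 0.273 and 7.81 to 16.6 (log2 fold change 3.43, adjusted p = 2.43e-05). Cd44, a hyaluronan receptor of which some isoforms hold HGF, was at 82.9 to 137 and 62.9 to 115 (log2 fold change -0.29, adjusted p = 0.362). On the values as deposited and with upper-quartile scaling Cd44 was called lower (adjusted p = 0.0314 and 0.0364).

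Below the receptors stand adaptors and kinases that many receptors share. Of 32 such genes 8 were lower in 3D (among them Gab2, Ptpn11, Pik3ca, Crk, Map2k1 and Akt1), 1 was higher (Nck2) and 23 did not pass, with 28.1% called, beside 41.5% of all genes tested, and a median log2 fold change of -0.21. Gab2, a docking protein for PI3-kinase and SHP2, was at 7.81 to 9.85 in 2D and 0.909 to 1.92 in 3D libraries (log2 fold change -1.93, limma's adjusted p = 0.000123). Nck2, an adaptor that links receptors to actin, was at 10.97 to 18.2 and 28.6 to 46.5 (log2 fold change 1.17, adjusted p = 0.00267).

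Feedback inhibitors of receptor signalling changed in both directions. Of 13 genes 7 were higher (Ptprj, Ptpn2, Spry1, Spry2, Spred1, Spred2 and Dusp6), 3 were lower (Cbl, Cblb and Dusp4) and 3 did not pass, so that 76.9% were called, beside 41.5% of all genes tested, and the median log2 fold change was 0.45. Ptprj, a receptor phosphatase that acts on PDGFRβ and MET, was at 8.23, 14.9, 22.4 and 6.87 in 2D and at 85.9 to 112 in 3D libraries (log2 fold change 2.89, limma's adjusted p = 0.000369). Dusp6, a phosphatase of ERK and a usual ERK target, was at 17.1, 82.7, 77.8 and 23.1 in 2D and at 185 to 365 in 3D libraries (log2 fold change 2.49, adjusted p = 0.00816). Spred1, an inhibitor of RAS signalling, was at 21.1 to 34.7 and 84.4 to 128 (log2 fold change 2.00, adjusted p = 0.000139). With mice 4 and 5 only, Ptprj and Dusp6 did not pass (adjusted p = 0.0557 and 0.0997). Of the lower genes, Cbl and Cblb encode ubiquitin ligases that send activated receptors to degradation, and Dusp4 encodes another MAP kinase phosphatase.

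The nearest relatives of the PDGF receptors gave no common direction. Of 7 genes of the other class III receptors and their ligands, 2 were higher in 3D and 2 lower, which is 57.1% called, beside 41.5% of all genes tested. Csf1 and Il34 are alternative ligands of the receptor CSF1R. Csf1 was at 425, 413, 434 and 306 in 2D and at 39.8, 90.8, 104 and 66.1 in 3D libraries (log2 fold change -2.45, limma's adjusted p = 0.000437). Il34 was at 2.51, 0.489, 0.307 and 1.81 in 2D and at 17.2 to 29.0 in 3D libraries (log2 fold change 3.43, adjusted p = 0.000203). Flt3l, the ligand of FLT3, was at 1.82 to 2.75 and 0.1004 to 1.08 (log2 fold change -0.99, adjusted p = 0.00747, 0.0618 with mice 4 and 5 only and 0.0563 without the 2D libraries of mice 2 and 5). The fourth gene called, Kit, was named after its values were seen and was higher with a log2 fold change of 0.50, at no more than 0.726 normalized FPKM.

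In the VEGF family, whose ligands share the cystine-knot fold of PDGFs, 3 of 9 tested genes were lower in 3D and 0 higher, which is 33.3% called, beside 41.5% of all genes tested. Figf, the gene of VEGF-D, was at 9.22, 19.0, 25.5 and 16.7 in 2D and at 0 to 0.158 in 3D libraries (log2 fold change -4.03, limma's adjusted p = 3.14e-05). Vegfc, the other lymphatic growth factor, was at 25.3, 6.30, 6.63 and 14.7 in 2D, at 0 in 3 of the 3D libraries and at 0.264 in that of mouse 7 (log2 fold change -3.54, adjusted p = 0.000412). Nrp2, a co-receptor for VEGF-C, was at 9.20 to 25.6 and 0.606 to 5.25 (log2 fold change -2.46, adjusted p = 0.00811, 0.16 with mice 4 and 5 only and 0.0755 without the 2D libraries of mice 2 and 5).

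Over all 7 lists, 81 of 82 gene names were listed in the data, and of the 78 genes tested 21 were higher, 17 lower and 40 did not pass, with a median log2 fold change of -0.065. Called genes made up 48.7%, near the 41.5% of all genes tested (21.2% higher and 20.3% lower). On the values as deposited the split was 18 higher and 24 lower, and with upper-quartile scaling it was 18 higher and 23 lower. The shares of all genes called under these scalings are not given here.

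**Figure D5:**
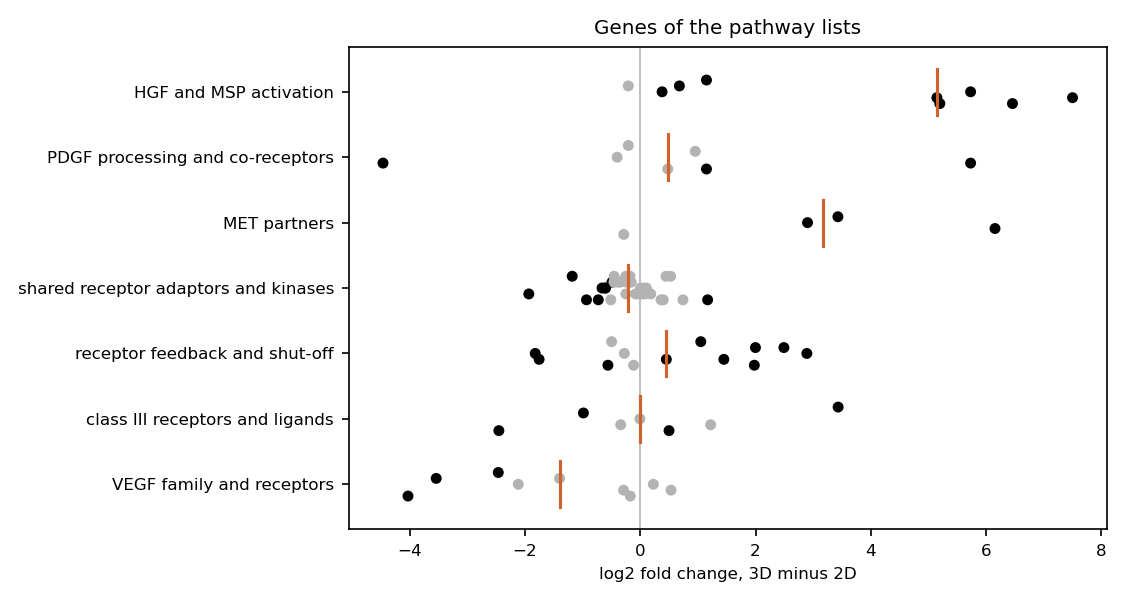
Each point is the fitted log2 fold change (3D minus 2D) of 1 gene, in black where limma's adjusted p was below 0.05 and in grey where it was not, by list, with an orange line at the list's median. The medians run from 5.15 for HGF and MSP activation and 3.17 for MET partners to -1.40 for the VEGF family, and those of the lists of adaptors and of class III receptors lie near 0.

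The genes most like Pdgfra, Pdgfrb, Hgf and Met were sought by Pearson's correlation of log2(normalized FPKM + 1) over the 8 libraries among 12582 other genes whose mean was 1 FPKM or more. The libraries fall into 2 clusters by culture, so that these values mainly restate which genes differ between cultures, and they are given as descriptions. Nearest to Pdgfrb were Cacng7 (r = 0.9995), Wbscr17 (0.9989) and Ctsk (0.9988), and 953 genes had an r above 0.95. Pdgfra, with its peak in mouse 4, was nearest to Gdf6 (0.998), Emilin2 (0.997) and Col27a1 (0.994), with 175 genes above 0.95. Hgf was nearest to Rhoc (0.986), Vps36 (0.983) and Tmem120a (0.981), with 117 genes, and Met to C77080 (0.993), Hdac6 (0.989) and Lgals3bp (0.989), with 375.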

How the data were processed

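Total RNA of 8 ADSC cultures (4 of 2D, 4 of 3D) was depleted of ribosomal RNA, made into directional libraries and sequenced from both ends by the authors, who used FastQC for quality, FASTX_Trimmer with BBMap for trimming, TopHat for mapping (to mm10, by the submitters' processing notes) and Cufflinks for FPKM values. The annotation used for this is not given in the sources used here. The deposited FPKM values are per gene and library, with no read counts, and were not yet quantile normalized, a step that the study's methods name.

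Of 24346 genes, 5484 at 0 in every library were left out, and 18862 were quantile normalized, converted to log2(FPKM + 1) and compared with limma 3.58.1 in R 4.3.3 (intensity trend, no covariates, Benjamini-Hochberg over all 18862). Calls were made at an adjusted p below 0.05. The model was tried on simulated data in which a small share of genes changed, equally up and down. Such data do not test a case in which 41.5% of genes are called. Depth was inferred from the spacing of low values, 108 to 133 per library, drawn from 875 eligible genes. At the best-fitting depth, 63.8 to 79.5% of these values per library lay within 0.1 of a whole number of fragments. Evenly spread values would give 20% at a depth fixed beforehand, and no baseline was computed for a depth chosen as the best fit. FPKM values were not turned into counts for a test.

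The numbers of mice 4 and 5 mark the same animals in both groups. After subtraction of group means, the correlation over 12583 genes between the cultures of 1 animal was -0.05 (mouse 4) and -0.11 (mouse 5).

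Named genes were the 9 members, all activators, inhibitors, co-receptors and partners that act on them, up to 3 called genes with the largest change in each other list, and the 3 genes most like each of 4 members. Further called genes of a list are named without values. A result that this rule covers is not reported here. The members, lists and tests were chosen with earlier results of these data known. The alternatives were other scalings, no intensity trend, a minimum mean of 1 FPKM, a pseudocount of 0.1, no genes under 300 nt, the mouse as a block or random effect, mice 4 and 5 only, and each library left out in turn. Those without the 2D libraries of mice 3 and 4 or of mice 2 and 5 were chosen after the data were seen. Assays other than RNA-seq were not analysed here.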

Additional observations from a re-analysis of the deposited data

Results flagged for a closer look

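Among 76 groups of 4 libraries (38 named genes in 2D and in 3D), 6 held 1 library that stood apart from the other 3 by Dixon's criterion. Chance gives this for about 5% of groups of normally spread values. That rate need not hold for Vegfc in 3D, with values at 0, or for Pdgfra in 3D, which rests on few estimated fragments. In normalized FPKM, Pdgfra was at 0.0872 in the 3D library of mouse 1 and at 0.0147 to 0.0179 in the other 3D libraries. Nrp1 was at 26.5 in the 2D library of mouse 4 and at 53.0 to 56.5 in the other 2D libraries. Gab2 was at 9.85 in the 2D library of mouse 4, beside 7.81 to 7.90. Nck2 was at 46.5 in the 3D library of mouse 1, beside 28.6 to 30.1. Csf1 was at 306 in the 2D library of mouse 5, beside 413 to 434. Vegfc was at 0.264 in the 3D library of mouse 7 and at 0 in the other 3D libraries.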

How the results depend on the processing

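The counts of called genes came to 4 lower and 2 higher of the 9 genes, and 17 lower and 21 higher of the 78 pathway genes tested. With the mouse as a replicate block, which pairs the cultures of mice 4 and 5 and leaves 1 residual degree of freedom, each of these 4 counts was 0. With mice 4 and 5 only, 1 of the 9 genes was lower and 2 were higher, and 7 pathway genes were lower and 13 higher. Apart from the block, the share of all genes called under each alternative is not given here, so these counts have no background of their own. With each library left out in turn, the counts were 4 to 5 lower and 2 to 2 higher among the 9 genes, and 17 to 20 lower and 16 to 20 higher among the pathway genes. Of 162 values of the 9 genes outside the block, 151 kept direction and side of the threshold, 4 lost the call, 6 gained one and 1 changed sign, namely Mst1r at 0.029 without the 2D libraries of mice 3 and 4. Plat was higher in 3D with the block (1.14 on the log2 scale), with mice 4 and 5 only (1.13) and without the 2D libraries of mice 3 and 4 (0.081), and ranged from -0.72 to 0.43 with 1 library left out. Cd44 was at 0.023 without the 2D libraries of mice 2 and 5. Why these values moved was not tested, beyond the smaller number of libraries in each such comparison. Without read counts, the depth and the floors are estimates.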

Other observations

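The VEGF receptor genes Kdr and Flt4, named here after their values were seen, had the same split of 2D libraries as Mst1r. In 2D, mice 2, 3, 4 and 5 gave normalized FPKM values of 0.188, 3.92, 6.34 and 0.155 for Kdr, and for Flt4 they gave 1.90, 17.0, 22.5 and 0.428. In 3D libraries Kdr was at most 0.0160 and Flt4 at most 0.776. Neither passed the test between the cultures (limma's adjusted p = 0.107 and 0.0961). The endothelial genes Pecam1 and Cdh5 were at most 0.143 and 0.0144 in the 2D libraries of mice 3 and 4, and Tie1 was at 0 in every library.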
